A study of Caenorhabditis elegans with 12 samples.

Results

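Genes whose proteins bind mRNAs in the germ line and the oocyte, 10 in number, were followed across the 12 libraries of the series: *gld-1*, *puf-3*, *puf-11*, *puf-5*, *oma-1*, *oma-2*, *mex-5*, *pos-1*, *mex-3* and *spn-4*. They were chosen by gene symbol, all 10 were found among the 20212 genes of the count table, and all 10 passed the filter on low counts that left 15048 genes for testing. RNA came from whole *C. elegans* collected, by the study's methods, as L4 larvae from timed egg lays. Each of 4 groups held 3 biological replicates. The groups were *mir-71(n4115)* animals (strain MT12993, a deletion of the microRNA gene *mir-71*) on sodium azide, *mir-71(n4115)* animals on water, wild type (N2) on sodium azide, and wild type on water. Azide, which blocks cytochrome c oxidase and so mitochondrial respiration, or water was put on bacterial lawns of *E. coli* OP50, and the sources used here give no azide dose for the sequenced animals. The deletion is carried throughout the body in 1 strain, and its effect cannot be told apart from that of other differences between the 2 strains.

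Germ cells make many mRNAs long before their proteins are needed, and proteins that bind the 3′ untranslated regions of those mRNAs hold translation back or release it. The same kind of control sets the order of events along the gonad, where cells leave mitosis, pass through meiosis, and in hermaphrodites first become sperm and later oocytes, a switch that falls around the end of the last larval stage. Several of these regulators are loaded into the oocyte, where they control its growth and maturation and, after fertilization, the first cell fates of the embryo. Whole animals were sequenced, so fewer germ cells or oocytes and less of a transcript in each of them cannot be told apart.

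Library depth ranged from 16828108 to 23937993 counts, and the 10 genes held between 0.0454% and 0.298% of them. Levels are given as CPM, the counts of a gene relative to the TMM-scaled total of its library, in the order of replicates 1, 2 and 3. The small RNA *mir-71* was not analysed here. Its host gene *ppfr-1* separated the genotypes of the labels, at 426 to 796 CPM in the 6 *mir-71(n4115)* libraries and 98.7 to 107 CPM in the 6 wild type libraries. No 2 libraries of a group agreed within sampling noise. Among the *mir-71(n4115)* libraries on azide, replicate 3 stood apart, with the highest chi-square per degree of freedom of all replicate pairs against replicate 1 (79.9) and against replicate 2 (70.8).

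*gld-1* encodes a STAR-family RNA-binding protein that represses many maternal mRNAs during meiosis and is needed for oocyte development. It lies on the plus strand of chromosome I, where the table places its coding extent at bases 7695696 to 7697410 of build WBcel235, in 8 exons. *gld-1* had 385, 353 and 217 CPM in *mir-71(n4115)* animals on azide, 244, 175 and 287 CPM in *mir-71(n4115)* animals on water, 664, 646 and 598 CPM in wild type on azide, and 219, 324 and 270.2 CPM in wild type on water. The 3 wild type libraries on azide were above all 9 others, and the *mir-71(n4115)* libraries on azide overlapped those on water.

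The PUF proteins bind short motifs in 3′ untranslated regions, and those encoded by *puf-3*, *puf-11* and *puf-5* act in oogenesis. *puf-3* (chromosome IV, minus strand, bases 13510518 to 13512145, 3 exons) had 152, 93.4 and 38.8 CPM in *mir-71(n4115)* animals on azide, 30.2, 25.0 and 39.7 CPM in *mir-71(n4115)* animals on water, 272, 284 and 249 CPM in wild type on azide, and 41.1, 59.4 and 46.0 CPM in wild type on water. Its close paralog *puf-11* (chromosome IV, plus strand, bases 6421608 to 6423309, 3 exons) had 128, 69.4 and 27.3 CPM in *mir-71(n4115)* animals on azide, 26.8, 20.9 and 29.8 CPM in *mir-71(n4115)* animals on water, 186, 205 and 176 CPM in wild type on azide, and 28.2, 41.4 and 34.3 CPM in wild type on water. For both genes, replicate 3 of the *mir-71(n4115)* libraries on azide fell within the range of the water libraries of the same strain, while replicates 1 and 2 were above it. How reads were shared between copies this alike is uncertain. *puf-5* (chromosome II, plus strand, bases 8575577 to 8577416, 5 exons), which is needed for normal oocytes, had 158, 78.8 and 39.1 CPM in *mir-71(n4115)* animals on azide, 24.1, 24.2 and 29.7 CPM in *mir-71(n4115)* animals on water, 339.9, 372 and 326 CPM in wild type on azide, and 39.5, 59.1 and 36.9 CPM in wild type on water. Here all 3 *mir-71(n4115)* libraries on azide were above the water libraries of that strain and below every wild type library on azide.

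*oma-1* and *oma-2* encode redundant CCCH zinc finger proteins that are required for oocyte maturation and must be cleared soon after fertilization. *oma-1* (chromosome IV, plus strand, bases 8889086 to 8890532, 6 exons) had 101, 68.1 and 35.7 CPM in *mir-71(n4115)* animals on azide, 34.0, 27.8 and 42.1 CPM in *mir-71(n4115)* animals on water, 158, 165 and 150.5 CPM in wild type on azide, and 32.4, 45.5 and 39.4 CPM in wild type on water. *oma-2* (chromosome V, plus strand, bases 8029509 to 8030920, 6 exons) had 94.3, 43.8 and 25.5 CPM in *mir-71(n4115)* animals on azide, 18.6, 15.9 and 20.1 CPM in *mir-71(n4115)* animals on water, 186, 190.1 and 177 CPM in wild type on azide, and 20.9, 31.9 and 20.95 CPM in wild type on water. The azide and water libraries of *mir-71(n4115)* overlapped for *oma-1* and did not overlap for *oma-2*.

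*mex-5* and *pos-1* encode CCCH zinc finger proteins of the early embryo, MEX-5 acting in the anterior to set up the asymmetry of the zygote and POS-1 in posterior cells, where it controls maternal mRNAs. *mex-5* (chromosome IV, plus strand, bases 13353730 to 13355543, 5 exons) had 227, 169 and 92.5 CPM in *mir-71(n4115)* animals on azide, 75.0, 56.9 and 98.2 CPM in *mir-71(n4115)* animals on water, 451, 470.3 and 431 CPM in wild type on azide, and 82.5, 117 and 93.5 CPM in wild type on water. *pos-1* (chromosome V, plus strand, bases 8414094 to 8414940, 2 exons) had 157, 71.7 and 34.8 CPM in *mir-71(n4115)* animals on azide, 22.1, 21.8 and 28.4 CPM in *mir-71(n4115)* animals on water, 272, 309 and 279 CPM in wild type on azide, and 33.6, 46.1 and 29.0 CPM in wild type on water. Among these 2 genes, only *pos-1* had all 3 *mir-71(n4115)* libraries on azide above those on water.

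*mex-3* encodes a KH-domain protein that represses maternal *pal-1* mRNA in the anterior of the embryo and acts with GLD-1 to maintain germ cell identity. SPN-4 is a protein with an RNA recognition motif that acts on spindle orientation and on the translation of maternal mRNAs. *mex-3* (chromosome I, plus strand, bases 127297 to 133582, 5 annotated transcripts) had 99.9, 81.9 and 50.4 CPM in *mir-71(n4115)* animals on azide, 38.2, 26.9 and 41.7 CPM in *mir-71(n4115)* animals on water, 241, 237 and 235.2 CPM in wild type on azide, and 41.7, 60.8 and 50.8 CPM in wild type on water. *spn-4* (chromosome V, minus strand, bases 6783653 to 6784902, 5 exons) had 153, 86.0 and 56.3 CPM in *mir-71(n4115)* animals on azide, 47.7, 39.5 and 53.6 CPM in *mir-71(n4115)* animals on water, 275, 289 and 268 CPM in wild type on azide, and 43.8, 70.4 and 54.8 CPM in wild type on water. Both genes had every *mir-71(n4115)* library on azide above the water libraries of that strain and below every wild type library on azide. *spn-4* shares 8 exonic bases with a gene on the opposite strand, all outside the extent given in the table, and the sources used here give no strand setting for the counting.

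**Figure D1:**
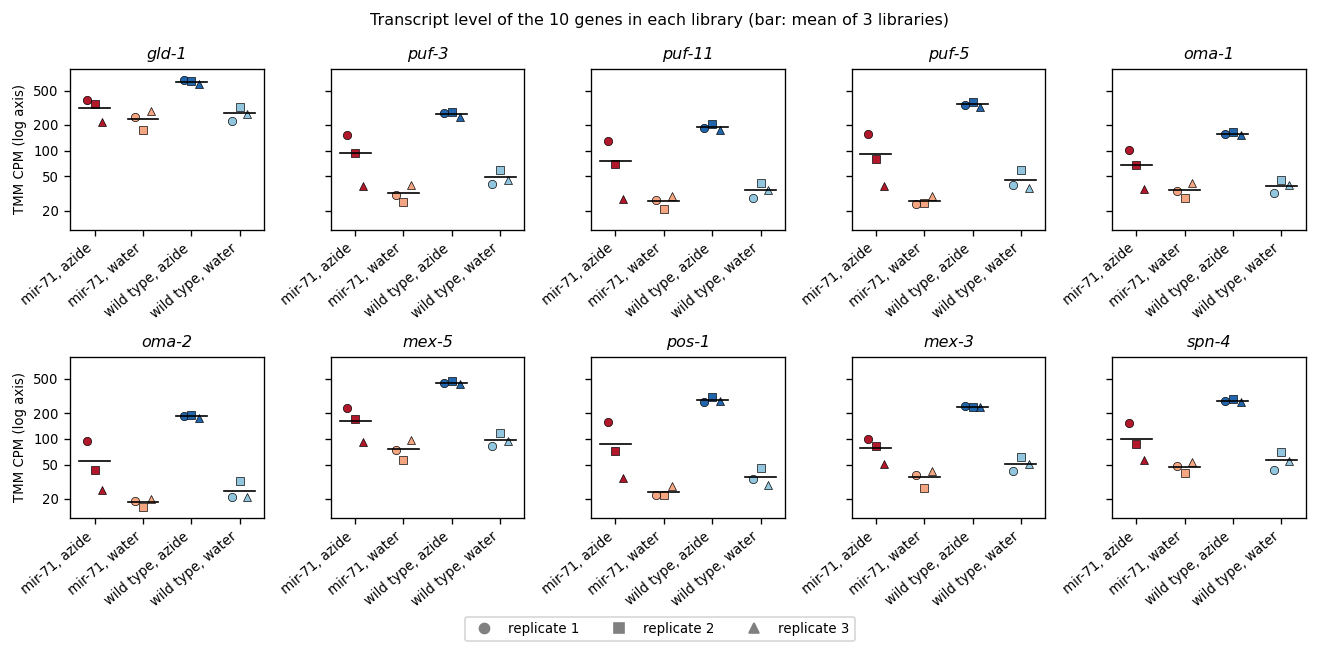
TMM-scaled CPM (log axis) of each of the 10 genes in the 12 libraries, by group, with 1 symbol shape per replicate number and a bar at the mean of 3 libraries. For all 10 genes the wild type libraries on azide are the highest and closely spaced, and the *mir-71(n4115)* libraries on azide are spread out, with replicate 1 at the top and replicate 3 at the bottom.

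Levels can be ranked between genes after division by coding length. On the CPM per kilobase scale *gld-1* had the highest mean in each of the 4 groups, at 229 ± 64.02 in *mir-71(n4115)* animals on azide, 169 ± 40.9 in *mir-71(n4115)* animals on water, 457 ± 24.3 in wild type on azide and 195 ± 37.6 in wild type on water (SD, n = 3 each). In wild type on azide the order after *gld-1* was *pos-1* (360.2 ± 24.7), *mex-5* (320.5 ± 13.9), *spn-4* (263 ± 10.2), *puf-5* (208 ± 14.4), *puf-3* (178 ± 11.8), *mex-3* (177 ± 2.1), *oma-2* (156 ± 5.7), *oma-1* (129 ± 5.8) and *puf-11* (125 ± 9.9) CPM per kilobase. In that group only 2 neighbouring pairs in the order had overlapping libraries, *puf-3* with *mex-3* and *oma-1* with *puf-11*. In *mir-71(n4115)* animals on azide every neighbouring pair overlapped. In both water groups *gld-1* stood apart from *mex-5*, the next gene, and *oma-2* came last, at 15.4 ± 1.8 CPM per kilobase in *mir-71(n4115)* animals and 20.8 ± 5.4 in wild type. Libraries of *oma-2* overlapped those of the gene ranked above it, *puf-5* in *mir-71(n4115)* animals and *puf-11* in wild type.

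The effect of azide in wild type was asked first. In wild type all 10 genes were higher on azide than on water, by 1.23 (SE 0.23) on the log2 scale for *gld-1* to 2.98 (SE 0.46) for *pos-1*, where 27.5% of all genes tested were called higher. Each passed an adjusted p of 0.05 (edgeR quasi-likelihood test, Benjamini-Hochberg over all genes tested), the lowest adjusted p being 2.06e-05 for *mex-3* and the highest 0.00104 for *puf-11*. The median log2 fold change of the 10 was 2.37, against -0.05 for all genes tested. *pos-1*, *puf-5* and *oma-2* were 7.90-fold, 7.66-fold and 7.50-fold higher, and *gld-1* was 2.34-fold higher. The 3 azide libraries were above the 3 water libraries for all 10 genes, as they were for 33.6% of genes tested. All 10 stayed called when any 1 library was left out. *gld-1* was the exception to 2 other settings: it lost its call when the libraries were centred on the list of meiotic chromosome genes, and when the test asked for a log2 fold change beyond 1.

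The deletion was then compared with wild type on azide. All 10 genes were lower in *mir-71(n4115)* animals, with log2 fold changes between -1.91 (SE 0.41) for *puf-5* and -0.999 (SE 0.22) for *gld-1* and a median of -1.50, against 0.04 for all genes tested, of which 18.7% were called lower. On a linear scale *puf-5* was at 0.266 of its wild type level, *oma-2* at 0.296, *pos-1* at 0.306, *mex-3* at 0.326 and *gld-1* at 0.5003. Adjusted p ran from 0.000425 for *mex-3* to 0.0313 for *puf-11* (edgeR). No *mir-71(n4115)* library reached any wild type library for any of the 10 genes, a separation that 26.5% of genes tested showed in the same direction. *puf-11* lost its call without replicate 2 of *mir-71(n4115)* on azide, or without any 1 of the 3 wild type azide libraries, which left 9 genes called. Without replicate 3 of *mir-71(n4115)* on azide 10 were called with a median of -1.23, where 2924 of 15283 genes tested were called lower. Without replicate 1 of that group 10 were called with a median of -1.99, where 3171 of 15280 were. With libraries centred on body wall muscle genes 3 of the 10 were called at a median of -1.22, where 627 of 15048 were. With the 2 groups fitted alone in edgeR 6 were called at a median of -1.47, where 2136 of 14433 were.

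On water the genotypes were closer. None of the 10 genes passed the test between *mir-71(n4115)* animals and wild type on water, where 0.758% of genes tested were called lower and 0.744% higher. At an unadjusted p under 0.05 edgeR gave 1 gene, *mex-3*, and DESeq2 on all 12 libraries called 0. The log2 fold changes were below 0 for all 10, between -0.80 (95% interval -1.70 to 0.11) for *puf-5* and -0.18 (-0.85 to 0.50) for *oma-1*, with a median of -0.43 against -0.002 for all genes tested. The 3 *mir-71(n4115)* libraries were below the 3 wild type libraries for *puf-3*, *puf-5*, *oma-2*, *pos-1* and *mex-3*, as they were for 12.6% of genes tested. DESeq2 on these 2 groups alone called *puf-3*, *puf-5* and *pos-1* lower, where it called 470 of 14338 genes tested lower. Centred on ribosomal protein genes, *oma-1* and *gld-1* turned to the other sign, with log2 fold changes of 0.07 and 0.05.

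**Figure D2:**
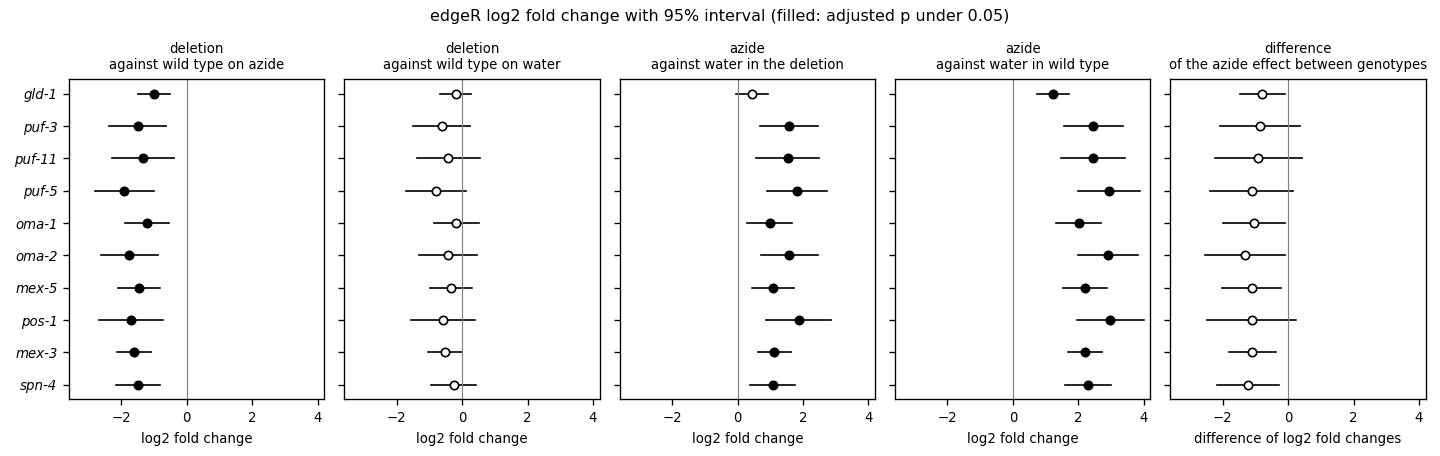
edgeR log2 fold change of each gene with its 95% interval in the 4 comparisons and, in the last panel, the azide effect in *mir-71(n4115)* minus that in wild type. Filled points passed an adjusted p of 0.05. All 10 are filled and above 0 for azide in wild type, all 10 are filled and below 0 for the deletion on azide, and none is filled on water or in the last panel.

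In *mir-71(n4115)* animals azide had a smaller estimated effect. Of the 10 genes, 9 were higher on azide than on water, where 12.3% of genes tested were called higher, and the exception was *gld-1*, with a log2 fold change of 0.43 (95% interval -0.05 to 0.92, adjusted p = 0.177, edgeR). The others ran from 0.98 (SE 0.31) for *oma-1* to 1.86 (SE 0.44) for *pos-1*, and the median of the 10 was 1.33, against 0.03 for all genes tested. *pos-1* was 3.64-fold higher, *puf-5* 3.54-fold and *oma-2* and *puf-3* 3.00-fold. Azide and water libraries did not overlap for *puf-5*, *oma-2*, *pos-1*, *mex-3* and *spn-4*, as for 18.3% of genes tested.

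That count rested on single libraries, more than the estimates did. It was 4 without replicate 1 of *mir-71(n4115)* on azide (median log2 fold change 0.88), where 1220 of 15280 genes tested were called higher. It was 2 without replicate 1 of *mir-71(n4115)* on water (median 1.36), where 1047 of 15293 were. Without replicate 2 of that group it was 2 (median 1.18), where 1204 of 15279 were. Without replicate 3 of *mir-71(n4115)* on azide it was 10 (median 1.62), where 2407 of 15283 were. *oma-1* and *mex-5* lost their calls without replicate 2 of *mir-71(n4115)* on azide, and *puf-11* without replicate 3 of *mir-71(n4115)* on water. *oma-1*, whose adjusted p was 0.0411 (edgeR), lost its call without any 1 wild type library, in a fit where all groups share 1 estimate of the spread, and *spn-4* without replicate 3 of wild type on water. *mex-3* and *puf-5* kept their calls whichever library was left out. In a fit of the 2 groups alone edgeR called 2 of the 10, with a median of 1.33, where 774 of 14462 genes tested were called higher.

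The difference between the 2 azide effects was tested as an interaction. None of the 10 genes passed, where 3.8% of genes tested were called lower in this sense and 6.67% higher. All 10 estimates were below 0, between -1.32 (95% interval -2.53 to -0.11) for *oma-2* and -0.79 (-1.48 to -0.10) for *gld-1*, with a median of -1.10 against 0.06 for all genes tested. *mex-3* came closest, at -1.09 (SE 0.33, adjusted p = 0.0539, edgeR). At an unadjusted p under 0.05 edgeR gave 6 genes. DESeq2 called 6 lower after adjustment, namely *gld-1*, *oma-1*, *oma-2*, *mex-5*, *mex-3* and *spn-4*, where it called 1351 of 15048 genes tested lower. Without replicate 1 of *mir-71(n4115)* on azide 8 genes were called lower, all but *gld-1* and *puf-3*. In that fit 1616 of 15280 genes tested were called lower, against 572 of 15048 with all libraries. *mex-3* alone was called without replicate 3 of *mir-71(n4115)* on azide, where 953 of 15283 genes were called lower. The same held without replicate 2 of *mir-71(n4115)* on water, where 585 of 15279 were.

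The libraries of *mir-71(n4115)* animals on azide differed from each other more than those of any other group. The distance between the highest and the lowest library of the group had a median over the 10 genes of 1.69 on the log2 scale, with a range of 0.83 for *gld-1* to 2.23 for *puf-11*. It was 0.55 in *mir-71(n4115)* animals on water, 0.14 in wild type on azide and 0.56 in wild type on water. Replicate 1 was the highest and replicate 3 the lowest for all 10 genes. Relative to the mean of *mir-71(n4115)* on water, replicate 1 was 1.63-fold to 6.50-fold higher (median 4.03), replicate 2 was 1.4996-fold to 3.03-fold higher (median 2.36), and replicate 3 was between 0.921 and 1.503 of that mean (median 1.22), above it for 9 genes and below it for *gld-1*. Replicate 3 did not exceed the highest of the 6 water libraries of the 2 genotypes for any of the 10. The water groups had a milder form of the same shared movement, replicate 3 of *mir-71(n4115)* and replicate 2 of wild type being the highest of their groups for all 10 genes.

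Ratios within a library do not depend on the scaling between libraries. Divided by *gld-1*, each after correction for coding length, the other 9 genes had higher ratios on azide than on water with no overlap between libraries, in *mir-71(n4115)* animals and in wild type alike. Against wild type on azide, the ratios in *mir-71(n4115)* animals on azide were lower with no overlap for 7 of the 9, and overlapped for *puf-11* and *oma-1*. Among the members *gld-1* had the smallest azide effects, at 1.23 in wild type and 0.43 in *mir-71(n4115)* on the log2 scale. Its change was also the smallest for the deletion on azide, at -0.999. The next smallest, all for *oma-1*, were 2.01, 0.98 and -1.21. The directions of these ratios thus follow from the divisor, *gld-1*, having changed least. The share of all genes tested with such ratios was not computed. With 3 libraries against 3, an exact two-sided permutation test cannot give a p below 0.1, so these ratios are given without a test.

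The ratio of *mex-3* to *gld-1* varied little within groups. It was 0.270, 0.241 and 0.241 in *mir-71(n4115)* animals on azide, 0.162, 0.160 and 0.150 in *mir-71(n4115)* animals on water, 0.377, 0.381 and 0.408 in wild type on azide, and 0.197, 0.195 and 0.195 in wild type on water. No library of any group overlapped those of another group. By contrast, *pos-1* relative to *gld-1* was 0.713, 0.355 and 0.281 in *mir-71(n4115)* animals on azide, 0.158, 0.219 and 0.173 in *mir-71(n4115)* animals on water, 0.716, 0.837 and 0.816 in wild type on azide, and 0.268, 0.249 and 0.188 in wild type on water. Replicate 1 of *mir-71(n4115)* on azide was just below the lowest wild type azide library by this ratio, while replicates 2 and 3 were nearer to the water libraries.

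**Figure D3:**
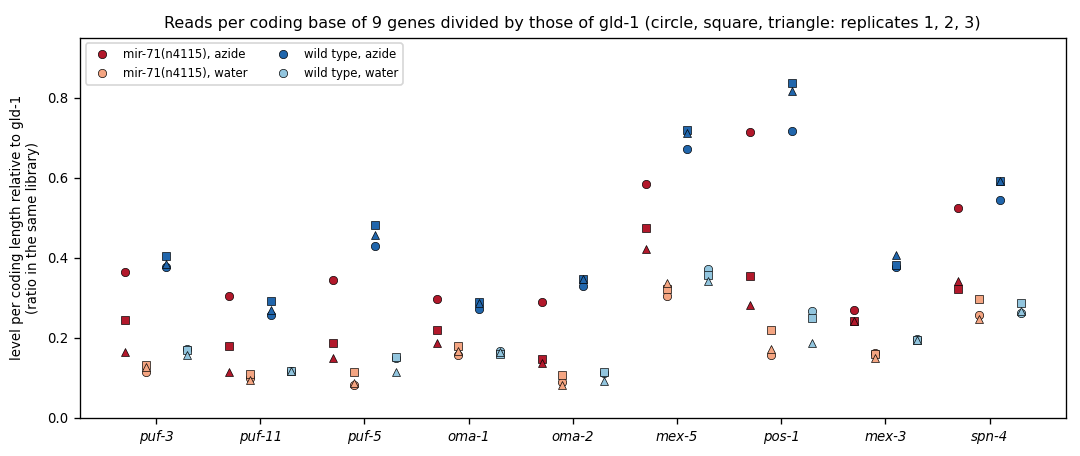
Reads per coding base of 9 genes divided by those of *gld-1* in the same library, in *mir-71(n4115)* and wild type animals on azide and on water, with circles, squares and triangles for replicates 1, 2 and 3. Azide libraries lie above water libraries of the same genotype for all 9 genes, and the *mir-71(n4115)* azide libraries of *mex-3* are close together where those of *pos-1* are spread.

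The redundant genes *oma-1* and *oma-2* did not keep a constant ratio. Per coding length *oma-2* was at 0.970, 0.667 and 0.738 of *oma-1* in *mir-71(n4115)* animals on azide and at 0.567, 0.591 and 0.494 in *mir-71(n4115)* animals on water. It was at 1.22, 1.20 and 1.22 of *oma-1* in wild type on azide and at 0.668, 0.726 and 0.551 in wild type on water. *oma-2* was the more abundant transcript in the 3 wild type azide libraries and the less abundant in the 9 others. The paralogs *puf-3* and *puf-11* kept a narrower ratio, between 1.13 and 1.47 in the 12 libraries.

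The 10 genes varied together. Pearson's r of log2 CPM over the 12 libraries lay between 0.946 and 0.997 for the 45 pairs, with a median of 0.988, and since the libraries fall into 4 groups these values describe mainly how alike the group levels are. The genes whose pattern was most like the mean of the 10, among those with at least 5 CPM, were *gpd-4* (r = 0.998), *gln-6*, *mex-6*, *W05F2.3*, *egg-1*, *rme-2*, *cpg-2*, *F18A1.7*, *gfat-2* and *rmd-1* (r = 0.997). *gpd-4* encodes a glyceraldehyde-3-phosphate dehydrogenase and *gln-6* a glutamine synthetase. *rme-2* is the yolk receptor of the oocyte, *egg-1* is needed on the oocyte surface at fertilization, and *cpg-2* encodes an eggshell proteoglycan. Within the gene lists, *gld-1* was closest to *car-1* and *cgh-1*, which encode partners in germ granules that store mRNA (r = 0.996 and 0.994), *oma-1* to *puf-6* (r = 0.998), and *mex-3* to *rme-2* (r = 0.995).

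Close relatives of the members were measured beside them. *mex-6*, a partly redundant copy of *mex-5*, had 111, 70.9 and 39.1 CPM in *mir-71(n4115)* animals on azide, 29.0, 24.2 and 36.6 CPM in *mir-71(n4115)* animals on water, 220.1, 234 and 219 CPM in wild type on azide, and 30.7, 44.7 and 36.1 CPM in wild type on water. Its log2 fold change was -1.61 (SE 0.31) for the deletion on azide and 2.59 (SE 0.32) for azide in wild type, both called. *puf-6* and *puf-7*, which act with *puf-5*, were lower in the deletion on azide by log2 fold changes of -1.30 and -1.45 and higher on azide in wild type by 2.20 and 2.33, all called. Of the 7 other PUF genes tested, 4 were called higher and 1, *puf-9*, lower on azide in wild type, where 27.5% and 27.1% of genes tested were. In the deletion on azide 3 were lower, where 18.7% of genes tested were. The median log2 fold changes of the 7 were 0.50 and -0.03 in these comparisons, against 2.37 and -1.50 for the 10 genes. Reads of the near-identical *puf-6* and *puf-7* may have been shared between them, and 2 of the 9 other PUF genes listed were not matched by symbol.

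Of the 7 other CCCH zinc finger genes tested, out of 9 listed, 5 were lower and 1 was higher in the deletion on azide, and 5 were higher and 1 was lower on azide in wild type. Of all genes tested, 18.7% were called lower and 20.1% higher in the deletion on azide, and 27.5% higher and 27.1% lower on azide in wild type. *mex-1*, which acts in the early embryo, was lower by -1.65 (SE 0.35) and higher by 2.66 (SE 0.37) on the log2 scale in these comparisons. *moe-3*, a relative of the *oma* genes, ran the other way. It had 41.7, 57.4 and 45.3 CPM in *mir-71(n4115)* animals on azide, 148, 116 and 107 CPM in *mir-71(n4115)* animals on water, 32.2, 29.1 and 26.6 CPM in wild type on azide, and 129, 130.04 and 122 CPM in wild type on water. It was higher in the deletion on azide (0.72, SE 0.14) and lower on azide in both genotypes. *pie-1*, which represses transcription in the germ line blastomeres of the embryo, was called for the difference of the azide effect (-0.99, SE 0.26, adjusted p = 0.0301, edgeR).

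A wider list of 33 other germline RNA regulators, such as germ granule, Nanos and poly(A) polymerase genes, had 24 lower in the deletion on azide and 26 higher on azide in wild type. It had 12 higher on azide in *mir-71(n4115)* and 4 lower for the difference. Of all genes tested, 18.7%, 27.5%, 12.3% and 3.8% were called in these directions. Median log2 fold changes of the list were -0.81 for the deletion on azide, against -1.50 for the 10 genes, and 0.89 for azide in wild type, against 2.37. Some genes of the list changed more than any of the 10. *meg-1* (-2.52, SE 0.47) and *meg-2* (-2.15, SE 0.48) did for the deletion on azide. *meg-4* (3.53, SE 0.40) and *meg-1* (3.18, SE 0.49) did for azide in wild type. *lin-41* was one of the 4 called lower for the difference. It encodes a TRIM-NHL protein that acts with the OMA proteins in growing oocytes and is also used outside the germ line. It had 113, 106 and 109 CPM in *mir-71(n4115)* animals on azide, 41.7, 37.6 and 56.0 CPM in *mir-71(n4115)* animals on water, 243, 223 and 222 CPM in wild type on azide, and 40.1, 63.4 and 46.5 CPM in wild type on water. Unlike the 10 genes, *lin-41* did not set replicate 3 of *mir-71(n4115)* on azide apart from replicates 1 and 2.

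Genes whose mRNAs these proteins are known to bind or repress were counted in the same way. Of 11 such genes, 8 were lower in the deletion on azide, 11 were higher on azide in wild type and 7 were higher on azide in *mir-71(n4115)*. Of all genes tested, 18.7%, 27.5% and 12.3% were called in these directions. The lists overlap: *nos-2* is also among the other germline RNA regulators and *rme-2* among the eggshell and oocyte surface genes. *nos-2*, a Nanos gene whose maternal mRNA is held silent in oocytes, had 16.2, 6.94 and 3.44 CPM in *mir-71(n4115)* animals on azide, 1.12, 1.44 and 2.61 CPM in *mir-71(n4115)* animals on water, 32.1, 40.8 and 34.3 CPM in wild type on azide, and 3.29, 5.01 and 3.98 CPM in wild type on water. *rme-2*, a GLD-1 target, had 212, 142 and 70.4 CPM in *mir-71(n4115)* animals on azide, 53.1, 38.3 and 70.1 CPM in *mir-71(n4115)* animals on water, 469, 480 and 454 CPM in wild type on azide, and 65.3, 109 and 76.0 CPM in wild type on water. Both genes repeated the spread of the 10 in the *mir-71(n4115)* libraries on azide, with replicate 1 highest and replicate 3 lowest.

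A list of 4 genes was set up as RNA regulators of the sperm fate. Of these, 2 were higher in the deletion on azide, where 20.1% of genes tested were called higher. The same 2 were lower on azide in wild type, where 27.1% were called lower. They were *fog-3*, which is required for germ cells to become sperm, and *cpb-2*, for which no role in that choice is claimed here. *fog-3* had 6.79, 6.33 and 11.3 CPM in *mir-71(n4115)* animals on azide, 17.2, 13.0 and 21.5 CPM in *mir-71(n4115)* animals on water, 1.64, 1.77 and 1.501 CPM in wild type on azide, and 9.88, 9.13 and 9.72 CPM in wild type on water. Its log2 fold change was 2.31 (SE 0.26) for the deletion on azide and -2.55 (SE 0.26) for azide in wild type, and the difference of the azide effect was called as well (1.47, SE 0.35, adjusted p = 0.0181, edgeR).

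Other gene lists moved with the 10 genes, and their part in the results was not tested. The summed level of the 10 was 1654, 1115 and 617 CPM in *mir-71(n4115)* animals on azide, 561, 434 and 671 CPM in *mir-71(n4115)* animals on water, 3044, 3168 and 2890 CPM in wild type on azide, and 583, 855 and 676 CPM in wild type on water. The 14 eggshell and oocyte surface genes summed to 1018 to 2788 CPM in *mir-71(n4115)* animals on azide, 640.4 to 959.6 CPM in *mir-71(n4115)* animals on water, 5750.3 to 6083 CPM in wild type on azide and 889 to 1295 CPM in wild type on water. All 14 were called lower in the deletion on azide, where 18.7% of genes tested were. The 26 meiotic chromosome genes, which are used in germ cells before the oocyte is made, moved less. They summed to 651 to 886 CPM in *mir-71(n4115)* animals on azide, 568 to 693 CPM in *mir-71(n4115)* animals on water, 1041 to 1102 CPM in wild type on azide and 527 to 696 CPM in wild type on water. With libraries centred on that list, the median of the 10 genes was -1.03 for the deletion on azide, against 0.59 for all genes. There 10 were still called lower, where 591 of 15048 genes tested were. For azide in *mir-71(n4115)* the median was 0.93 against -0.31, with 9 called higher, where 619 of 15048 were. For azide in wild type it was 1.39 against -1.06, with 9 called higher, where 733 of 15048 were. For the difference of the azide effect it was -0.50 against 0.72, with 0 called.

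Markers of the molt and of the adult also followed the azide libraries of wild type. The 11 molting cycle genes summed to 2935 to 4268 CPM in *mir-71(n4115)* animals on azide, 3976 to 5014 CPM in *mir-71(n4115)* animals on water, 832 to 882 CPM in wild type on azide and 4599 to 6045 CPM in wild type on water, all 11 being higher in the deletion on azide. The 9 hypodermis genes summed to 984 to 1230 CPM in *mir-71(n4115)* animals on azide and 1083 to 1483 CPM in *mir-71(n4115)* animals on water. They summed to 329 to 362 CPM in wild type on azide and 1469 to 1818 CPM in wild type on water, with 7 of 9 higher in the deletion on azide. Of 16 neuron genes, 12 were higher in the deletion on azide and 14 were lower on azide in wild type. The 5 adult cuticle collagen genes were not uniform: 3 were lower and 1 was higher in the deletion on azide, and 3 were higher and 2 lower on azide in wild type. *col-19* and *col-7* were among those higher on azide in wild type (3.45 and 2.90 on the log2 scale), and *bli-1* and *bli-2* were the 2 that were lower (-3.45 and -3.28). The 6 vitellogenin genes, which encode yolk made by the adult intestine, summed to 238 to 2129.7 CPM in *mir-71(n4115)* animals on azide, 2226 to 2548 CPM in *mir-71(n4115)* animals on water, 34570.0 to 44405 CPM in wild type on azide and 4216 to 6191 CPM in wild type on water. Replicate 2 was the lowest *mir-71(n4115)* azide library for the vitellogenins, whereas replicate 3 was the lowest for the 10 genes. The 39 spermatogenesis genes summed to 2659, 2538 and 777 CPM in *mir-71(n4115)* animals on azide, 1323, 1079 and 1556 CPM in *mir-71(n4115)* animals on water, 2524, 2730.2 and 2222 CPM in wild type on azide, and 2035, 2098 and 2191 CPM in wild type on water. By these sums, on azide only replicate 3 of *mir-71(n4115)* was below the wild type libraries, and on water all 3 *mir-71(n4115)* libraries were below them. Gene by gene, 0 of the 39 were called between the genotypes on water. In the deletion on azide 4 were called higher and 3 lower. The 9 early embryo genes, which would mark fertilized eggs, had between 3 and 22 counts in all of a library, 2 of them were at 0 in every library, and none passed the filter.

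**Figure D4:**
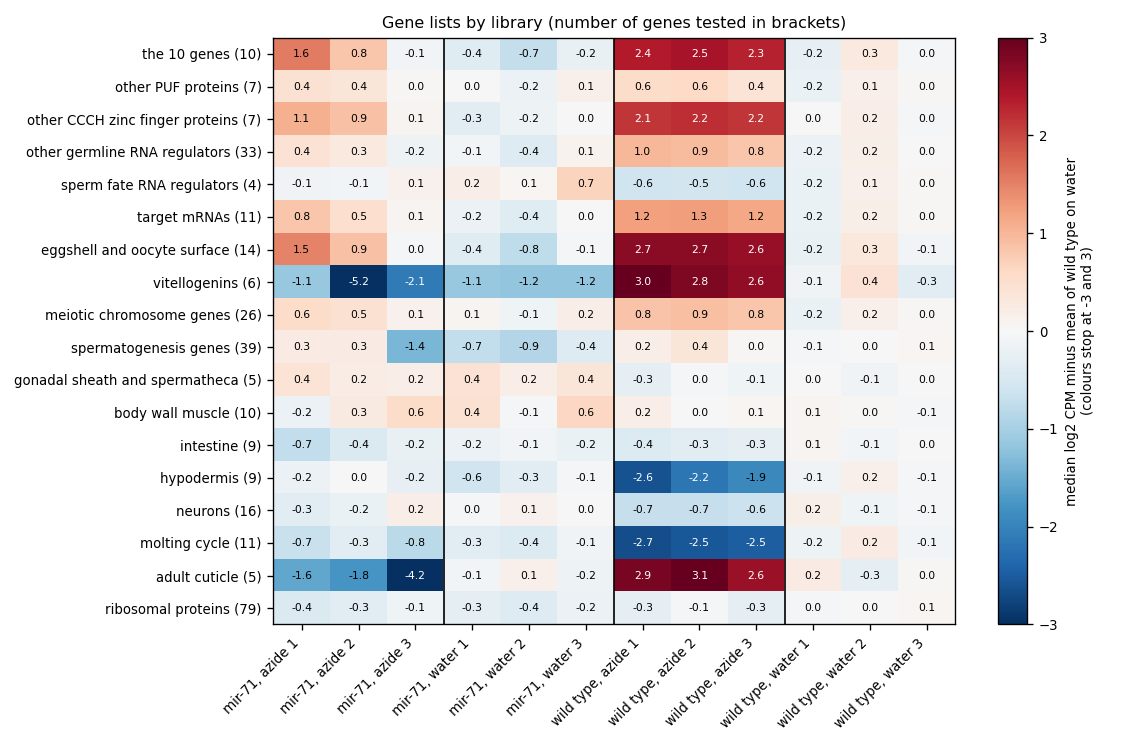
Median over the tested genes of each list of log2 CPM minus the mean of wild type on water, for each of the 12 libraries (replicates 1 to 3 of each group, left to right). The 10 genes and the eggshell and oocyte surface list are high in wild type on azide and graded over the *mir-71(n4115)* libraries on azide, the meiotic chromosome list changes less, the molting cycle list is low in wild type on azide, and the median of the adult cuticle list is high in wild type on azide and low in *mir-71(n4115)* on azide.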

How the data were processed

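Poly(A) RNA of 12 libraries was sequenced by a commercial provider. By the study's methods, the authors cleaned reads with cutadapt 1.9.1, placed them on WBcel235 with HISAT2 2.0.1 and obtained gene counts with HTSeq 0.6.1. Every test used these deposited counts, which are unnormalized integers. The deposited table also gives FPKM, recomputed from count, coding length and library total for 100% of values within 0.005, and used only as an alternative for levels. All 12 libraries entered 1 edgeR fit (version 4.0.16, R 4.3.3) with a coefficient per group, TMM factors of 0.924 to 1.19, robust quasi-likelihood tests, a filter at 10 counts, and two-sided p adjusted by Benjamini-Hochberg over 15048 genes. DESeq2 1.42.0, other scalings, no filter, single library omissions and a replicate block were alternatives. Members, gene lists and tests were chosen with earlier results of these data known. Beside the 10 members and the copies *mex-6*, *puf-6* and *puf-7*, the text names from each list at most 2 called genes with the largest rise and 2 with the largest fall, with a minimum of 5 CPM in the group with more, and genes of the most similar pattern, 10 for the mean of the members and 3 for each of *gld-1*, *oma-1* and *mex-3*. *ppfr-1* was added as a check of the labels.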

Additional observations from a re-analysis of the deposited data

How the results depend on the processing

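The 10 calls for azide in wild type were kept under each of the 12 single library omissions (10 to 10 called). Over these omissions 3673 to 4624 genes were called higher among all tested. Lower calls for the deletion on azide ranged from 9 to 10, with 1975 to 3171 genes called lower among all tested. They were 6 with edgeR on the 2 groups alone (2136 of 14433 genes) and 3 when centred on body wall muscle genes (627 of 15048). Against a log2 fold change of 1 they were 0 (203 of 15048). Higher calls for azide in *mir-71(n4115)* ranged from 2 to 10 over the omissions, with 1047 to 2407 genes called higher among all tested. They were 2 with edgeR on the 2 groups alone (774 of 14462 genes) and 6 with no filter (1662 of 19105). Against a log2 fold change of 1 they were 0 (177 of 15048). For the deletion on water, DESeq2 on the 2 groups alone called 3 lower, where it called 470 of 14338 genes tested lower. Centring on ribosomal protein genes gave *gld-1* 0.045 and *oma-1* 0.074 on the log2 scale. For the difference of the azide effect, DESeq2 called 6 lower (1351 of 15048 genes tested) and DESeq2 size factors gave 1 (840 of 15048). Omissions ranged from 0 to 8, with 186 to 1616 genes called lower among all tested. The cause was not tested for any of these. Same-numbered libraries did not deviate together (r from -0.107 to 0.082 over 12 pairs of groups and numbers). With a replicate block, 6 of the 10 genes were called higher for azide in *mir-71(n4115)* in place of 9, where 1505 of 15048 genes were. For the deletion on azide 10 were called lower, where 2586 of 15048 were. Each of the 10 genes had at least 384 counts in every library, and 3 libraries per group limit all comparisons.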
